A study of Mus musculus with 17 samples.

Results

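The genes described here are 10 markers of tissue-resident and alternatively activated macrophages: Retnla, Chil3, Arg1, Mrc1, Cd163, Lyve1, Folr2, Timd4, Mertk and F13a1. They were chosen by name, with earlier results of these data known. All 10 were on the array, out of 20289 gene symbols, and all 10 were among the 15863 genes that passed the detection filter and were tested. Their RNA was measured in mouse epididymal adipose tissue, the visceral fat depot beside the epididymis, on 17 Illumina bead arrays of biotin-labelled total RNA.

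All mice were of the WBB6F1 background, a cross of WB and C57Bl/6. KitW/Wv mice carry the W and Wv alleles of Kit, the receptor for stem cell factor, so that mast cells and other blood cell lineages that depend on Kit are affected. Cpa3Cre/+ mice carry Cre recombinase in 1 allele of the mast cell carboxypeptidase gene Cpa3 and lack mast cells. Cpa3+/+ mice were the wild type. For 12 weeks each genotype received HFD, a high-fat diet with 60% of its energy as fat, or LFD, which the protocol calls chow with 6% fat. Mice were fasted for 5 h before collection. The groups held 3 KitW/Wv HFD, 3 KitW/Wv LFD, 3 Cpa3Cre/+ HFD, 3 Cpa3Cre/+ LFD, 2 Cpa3+/+ HFD and 3 Cpa3+/+ LFD arrays. Whether the numbered samples are different animals is not said in the labels, and p-values then reflect only the spread between samples, which may be technical.

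Macrophages of healthy adipose tissue sit along blood vessels, take up dying cells and debris, and carry scavenger and lectin receptors on their surface. Interleukin 4 and interleukin 13, acting through the transcription factor STAT6, switch on a further set of genes in mouse macrophages, a state known as alternative activation. In obesity, other macrophages that hold lipid gather around adipocytes in the same tissue.

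The 10 genes fall into groups by role. Retnla encodes the secreted protein RELMα and Chil3 the secreted chitinase-like protein Ym1, both made by alternatively activated mouse macrophages. Arg1 encodes arginase 1, which turns arginine into ornithine and urea and is also a urea cycle enzyme of the liver. Mrc1 encodes the mannose receptor CD206 and Cd163 the scavenger receptor for haemoglobin bound to haptoglobin. Lyve1 encodes a hyaluronan receptor of perivascular macrophages and of lymphatic endothelium, and Folr2 a folate receptor of resident macrophages. Timd4 and Mertk encode receptors through which macrophages bind and take up apoptotic cells. F13a1 encodes the A subunit of coagulation factor XIII.

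Of the 10 genes, 8 matched the RefSeq promoter table (build GRCm38.p6), with 10 promoters in all. The 250 bases before the start of Mrc1, which is the gene called for the diet below, and of Retnla and Chil3, known targets of STAT6 in mouse macrophages, are given 5′ to 3′ on the strand of the gene. Capitals mark the motif letters found by a search of both strands. In Mrc1 (chr2:14229164-14229413, plus strand) they are the core GAGGAA bound by the macrophage factor PU.1, which lies on the opposite strand 180, 167 and 35 bases before the start. In Chil3 (chr3:106167565-106167814, minus strand) they are TTCNNNGAA, a STAT motif with a 3-base spacer, 172 bases before the start. In Retnla (chr16:48842359-48842608, plus strand) they are TTCNNNNGAA, the STAT motif with a 4-base spacer, 145 bases before the start.
Mrc1: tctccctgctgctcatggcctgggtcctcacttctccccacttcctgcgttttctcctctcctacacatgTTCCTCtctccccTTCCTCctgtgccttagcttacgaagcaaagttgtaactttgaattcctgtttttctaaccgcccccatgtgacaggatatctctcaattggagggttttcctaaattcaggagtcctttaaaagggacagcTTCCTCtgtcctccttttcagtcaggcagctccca
Chil3: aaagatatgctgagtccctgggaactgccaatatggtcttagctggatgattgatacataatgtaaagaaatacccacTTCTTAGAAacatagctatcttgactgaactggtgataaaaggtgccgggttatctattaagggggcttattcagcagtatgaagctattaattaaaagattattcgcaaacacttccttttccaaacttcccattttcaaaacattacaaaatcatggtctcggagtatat
Retnla: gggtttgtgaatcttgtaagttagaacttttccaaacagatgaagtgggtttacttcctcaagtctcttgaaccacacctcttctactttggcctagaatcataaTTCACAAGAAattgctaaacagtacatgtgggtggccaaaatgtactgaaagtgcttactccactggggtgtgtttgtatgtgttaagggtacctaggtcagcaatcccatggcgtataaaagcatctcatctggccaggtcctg

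GAGGAA was also present in 23.3% of the 32851 promoters of that length in the table, TTCNNNGAA in 7.02% and TTCNNNNGAA in 5.85%. The last was found in 1 of the 10 promoters of the members, that of Retnla. The promoter of Retnla also held TTGCNNAA, a C/EBP motif, 134 bases before the start, without overlap with the STAT motif, and GAGGAA 196 bases before it. TTGCNNAA was present in 9.56% of all promoters. These are matches of letters, and binding was not measured.

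Adipoq and Plin1, which mark adipocytes, were detected on all 17 arrays. Mast cell markers were lower in KitW/Wv than in Cpa3+/+ tissue on HFD for 8 of 10 genes, and lower in Cpa3Cre/+ than in Cpa3+/+ tissue on HFD for 6 of 10. Arrays of 1 group correlated with r between 0.938 and 0.986. Arrays also differed in markers of other tissues, measured as how far the log2 values of a marker list lay, on average, from their means across the 17 arrays. Liver genes ranged from -2.56 to 1.86 and red blood cell genes from -1.65 to 1.75. The arrays with the highest epididymis, B cell and skeletal muscle genes were 3, which were also left out together. Cpa3+/+ LFD array 3 was at 3.97 for epididymis and testis genes, KitW/Wv HFD array 1 at 1.95 for B cell and 1.78 for skeletal muscle genes, and Cpa3Cre/+ LFD array 2 at 1.25 for skeletal muscle genes. For the 10 genes of this report, calls that change when these arrays are left out are given below. Other genes named from the lists were not checked in this way.

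Values below are log2 intensities after background correction and quantile normalization, and a gene was called when its adjusted p from limma, with Benjamini-Hochberg adjustment over all genes tested, was below 0.05. The 10 genes had 16 probes in all, and each gene is represented by its brightest probe on average. Detection was seen on all 17 arrays for every gene but Chil3, which was detected on 13. Because the tissue was measured in bulk, fewer cells of a type and less RNA per cell cannot be told apart in any value given here.

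Few of these genes passed the threshold for the diet. In KitW/Wv tissue 0 of the 10 genes passed the threshold for HFD over LFD, beside 0.0063% of all genes tested. In Cpa3Cre/+ tissue 1 of the 10 passed, Mrc1, which rose, beside 9.64% of all genes (6.22% higher and 3.42% lower). In Cpa3+/+ tissue 0 of the 10 passed, beside 4.91% of all genes (3.63% higher and 1.28% lower). At an unadjusted p below 0.05, limma counted 0 of the genes in KitW/Wv, 2 in Cpa3Cre/+ and 1 in Cpa3+/+ tissue. The shares called among the members were close to those among all genes. Median log2 fold changes of the 10 were 0.11 in KitW/Wv, 0.07 in Cpa3Cre/+ and -0.02 in Cpa3+/+ tissue, beside 0.00, -0.02 and -0.01 for all genes.

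**Figure D1:**
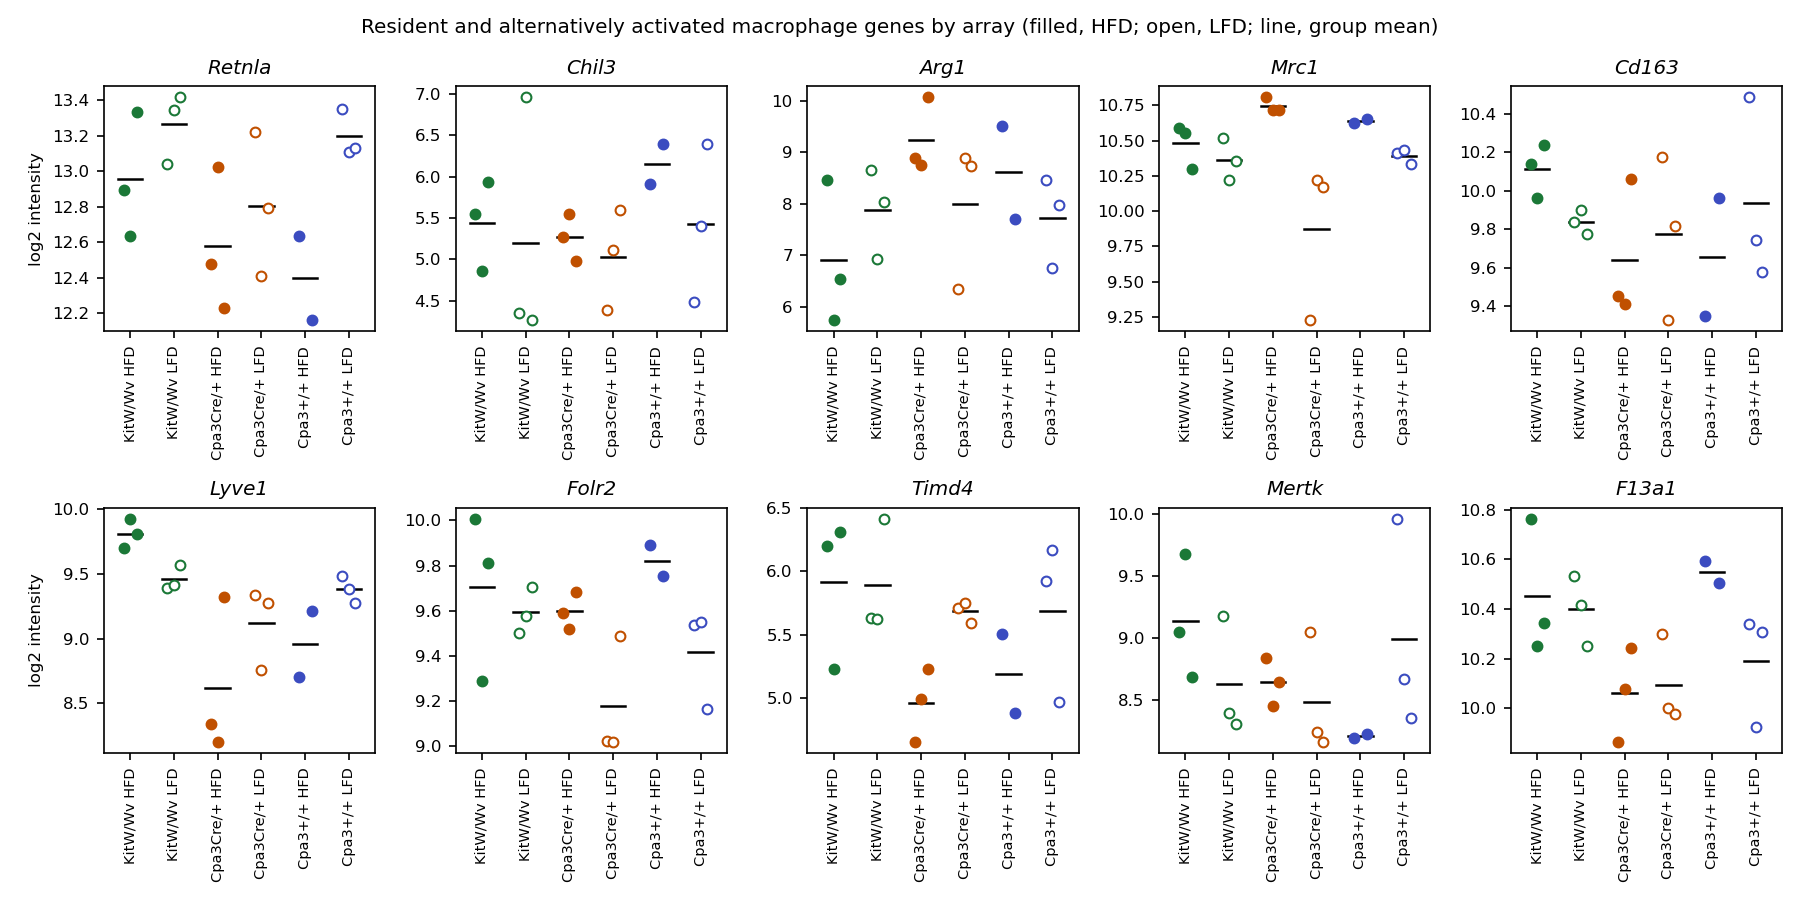
Log2 intensity (vertical axes, each on its own scale) of the 10 genes on each of the 17 arrays, by genotype and diet, with filled points for HFD, open points for LFD and a line at each group mean. Mrc1 on the Cpa3Cre/+ LFD arrays and Lyve1 on the KitW/Wv HFD arrays stand out: Mrc1 there is below all Cpa3Cre/+ HFD arrays and Lyve1 there above all other arrays, while Arg1 spreads from 5.74 to 10.07.

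Markers carried by macrophages in general behaved differently on the same arrays. Of 18 general macrophage markers, among them Adgre1 (F4/80), Cd68 and Csf1r, 0 passed for the diet in KitW/Wv tissue, whereas 16 rose in Cpa3Cre/+ and 9 rose in Cpa3+/+ tissue. Their median log2 fold changes were 0.12, 1.62 and 1.14 in these genotypes, in the same order. Cd68, a lysosomal glycoprotein, rose by 3.62 on the log2 scale in Cpa3Cre/+ (SE 0.36, adjusted p = 1.44e-05) and by 2.61 in Cpa3+/+ tissue (SE 0.40, adjusted p = 0.00158). Of 17 markers of lipid-associated macrophages, 0 passed in KitW/Wv, 12 rose in Cpa3Cre/+ and 9 rose in Cpa3+/+ tissue, with medians of 0.44, 1.79 and 1.53. Trem2, a lipid-sensing receptor, rose by 4.74 in Cpa3Cre/+ (SE 0.29, adjusted p = 3.1e-07) and by 3.81 in Cpa3+/+ tissue (SE 0.33, adjusted p = 1.84e-05).

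By array, the mean deviation of the general macrophage markers lay between 0.99 and 1.11 on Cpa3Cre/+ HFD arrays, against -0.93 to -0.45 on Cpa3Cre/+ LFD arrays. It lay at 0.71 and 0.70 on the Cpa3+/+ HFD arrays, against -0.70 to -0.43 on Cpa3+/+ LFD arrays. The KitW/Wv arrays covered -0.21 to 0.13 on HFD and -0.25 to -0.14 on LFD. Over the 10 resident and alternatively activated genes the same quantity stayed between -0.31 and 0.35 on all arrays, and the diets overlapped in each genotype. The difference between the lists was not tested.

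**Figure D2:**
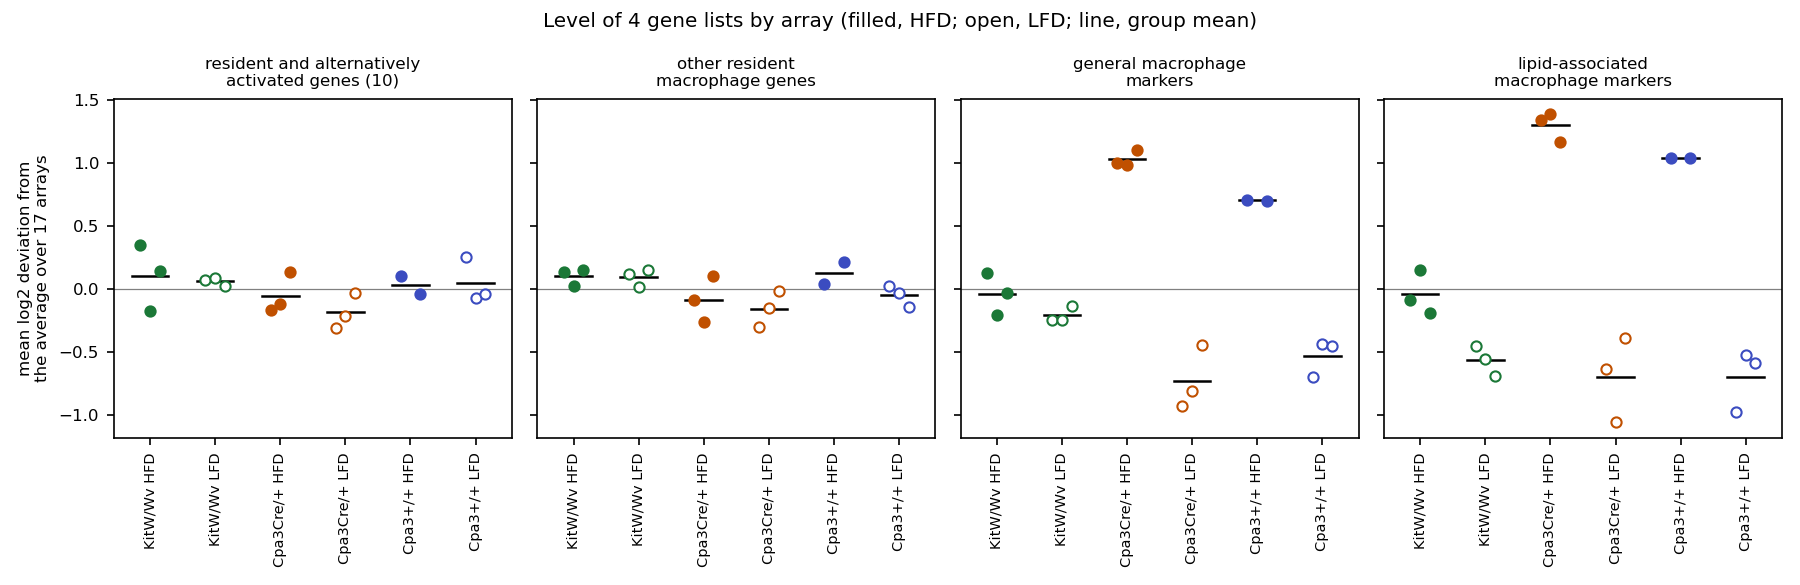
Mean log2 deviation from the average over 17 arrays (vertical axis) of 4 gene lists on each array, by genotype and diet, with filled points for HFD, open points for LFD and a line at each group mean. General and lipid-associated macrophage markers separate the diets in Cpa3Cre/+ and Cpa3+/+ tissue, and the 10 resident and alternatively activated genes do not. In KitW/Wv tissue the lipid-associated markers also separate the diets, at -0.19 to 0.16 on HFD against -0.69 to -0.45 on LFD. The general markers overlap there.

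Of the secreted proteins, Retnla varied over a 2.39-fold range. In KitW/Wv tissue it measured 12.89, 12.63 and 13.33 on HFD, against 13.04, 13.34 and 13.42 on LFD. In Cpa3Cre/+ tissue it measured 12.48, 13.02 and 12.23 on HFD, against 13.22, 12.41 and 12.79 on LFD. In Cpa3+/+ tissue it measured 12.63 and 12.16 on HFD, against 13.35, 13.11 and 13.13 on LFD. Both Cpa3+/+ HFD arrays lay below all 3 LFD arrays, and the diets overlapped in the other genotypes. Such separation of 2 from 3 arrays was frequent: in Cpa3+/+ tissue 3 of the 10 genes were higher and 3 lower on every HFD array. For Retnla the log2 fold changes of HFD over LFD were -0.31 (SE 0.25) in KitW/Wv, -0.23 (SE 0.25) in Cpa3Cre/+ and -0.80 (SE 0.28) in Cpa3+/+ tissue. The last had a 95% interval of -1.40 to -0.20 before adjustment over genes and an adjusted p of 0.136 with limma, so Retnla was not called.

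Chil3 was dim, with values from 4.27 to 6.96 and detection on 3 KitW/Wv HFD arrays, 1 KitW/Wv LFD array, 3 Cpa3Cre/+ HFD arrays, 2 Cpa3Cre/+ LFD arrays, 2 Cpa3+/+ HFD arrays and 2 Cpa3+/+ LFD arrays. The highest value, 6.96, was on KitW/Wv LFD array 2, whose 2 companions read 4.35 and 4.27. Its log2 fold changes of HFD over LFD were 0.25 (SE 0.62) in KitW/Wv, 0.24 (SE 0.62) in Cpa3Cre/+ and 0.73 (SE 0.70) in Cpa3+/+ tissue, none of them called. The probe that stood for Chil3 was annotated under the older name Chi3l3, and its 2 further probes followed it with r = 0.781 and 0.490 over the 17 arrays. The gene whose values were most like those of Chil3 was Chil4 (r = 0.860 over 17 arrays), a near-identical copy, so signal of the 2 genes may be shared and the value of Chil3 is uncertain.

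Arg1 varied more than any other of the 10 genes, over a 20.1-fold range. In KitW/Wv tissue it measured 8.46, 5.74 and 6.53 on HFD, against 8.65, 6.92 and 8.04 on LFD. The Cpa3Cre/+ arrays read 8.89, 8.75 and 10.07 on HFD, against 6.35, 8.88 and 8.73 on LFD. The Cpa3+/+ arrays read 9.51 and 7.70 on HFD, against 8.45, 6.75 and 7.96 on LFD. Diets overlapped in every genotype. The log2 fold changes of HFD over LFD were -0.96 (SE 0.81) in KitW/Wv, 1.25 (SE 0.81) in Cpa3Cre/+ and 0.89 (SE 0.90) in Cpa3+/+ tissue, and none was called.

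Across the 17 arrays the values of Arg1 followed those of genes known for the liver. The 3 genes most like it were Agmat, Uox and Urah (r = 0.937, 0.936 and 0.932 over 17 arrays). Uox encodes urate oxidase, a liver enzyme. A list of 13 liver genes, written after the values of Arg1 had been seen, spread widely too, though unevenly. Apoa2, an apolipoprotein made by hepatocytes, had the widest range of the 13, from 7.17 to 13.42. Alb, the albumin gene, was dim, with values from 4.14 to 5.81 and detection on 9 of the 17 arrays. Fgb was also listed but was detected on 0 arrays and is not among the 13. The mean deviation of the liver list correlated with Arg1 with Pearson's r = 0.890 and Spearman's rho = 0.880 over the 17 arrays. Uox, named above as 1 of the genes most like Arg1, is also in this list. The correlations of the list with Arg1 are therefore partly built in and are no separate evidence. Without the 2 arrays farthest from the median of the liver list r was 0.857, and over deviations from the group means it was 0.876. All 17 points share 1 extract each and the normalization of the whole set, so these are descriptions. For the other 9 genes r with the liver list lay between -0.504 (Lyve1) and 0.404 (Mrc1). What part liver RNA had in the level of Arg1 was not tested. None of the 13 liver genes was called in any of the 9 comparisons of 2 groups.

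**Figure D3:**
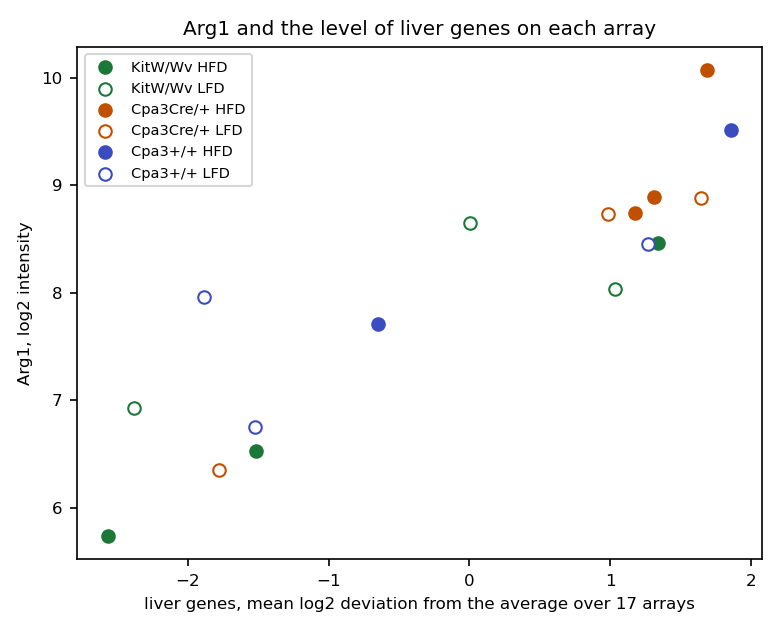
Log2 intensity of Arg1 (vertical axis) against the mean log2 deviation of 13 liver genes from their average over 17 arrays (horizontal axis), 1 point for each array, coloured by genotype and filled for HFD. The KitW/Wv HFD array with the lowest Arg1, 5.74, also has the lowest liver gene level, -2.56.

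Mrc1 was the single member called for the diet. It measured 10.81, 10.72 and 10.71 on Cpa3Cre/+ HFD arrays, against 9.23, 10.22 and 10.17 on Cpa3Cre/+ LFD arrays. Every HFD array was above every LFD array, and LFD array 1 was far below its companions. Mrc1 rose by 0.87 on the log2 scale (SE 0.21, 95% interval 0.42 to 1.32, limma adjusted p = 0.016), a 1.83-fold difference. That LFD array 1 also had the lowest general macrophage level of all arrays, -0.93. Without it the rise was 0.55 (adjusted p = 0.028). Without HFD array 1 it was 0.84 and the adjusted p was 0.0594, which ends the call, as did a fit to the 2 groups alone (adjusted p = 0.153). Over all alternatives run, the adjusted p ranged from 0.00182 to 0.153.

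In KitW/Wv tissue Mrc1 measured 10.59, 10.55 and 10.30 on HFD, against 10.52, 10.22 and 10.35 on LFD, with a log2 fold change of 0.12 (SE 0.21). In Cpa3+/+ tissue it measured 10.62 and 10.65 on HFD, against 10.41, 10.43 and 10.33 on LFD, with a log2 fold change of 0.25 (SE 0.24). The Cpa3+/+ groups did not overlap, and the KitW/Wv groups did. The difference between the diet effects in KitW/Wv and Cpa3Cre/+ tissue was -0.76 (SE 0.30, limma adjusted p = 0.256), and it was not called. The genes most like Mrc1 over the 17 arrays were C1qc, Lgmn and C1qb (r = 0.861, 0.843 and 0.841), of which C1qb and C1qc encode chains of complement C1q and are also in the lists of general macrophage markers and of apoptotic cell uptake genes. C1qb rose by 1.63 and C1qc by 1.26 with HFD in Cpa3Cre/+ tissue (SE 0.22 and 0.19, limma adjusted p = 0.000189 and 0.000485).

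Cd163 and Folr2 did not pass for the diet in any genotype. Cd163 had log2 fold changes of 0.28 (SE 0.27) in KitW/Wv, -0.13 (SE 0.27) in Cpa3Cre/+ and -0.28 (SE 0.30) in Cpa3+/+ tissue. Its KitW/Wv HFD arrays read 10.14, 9.96 and 10.24, against 9.83, 9.90 and 9.77 on LFD, without overlap. Folr2 had log2 fold changes of 0.11 (SE 0.19) in KitW/Wv, 0.42 (SE 0.19) in Cpa3Cre/+ and 0.41 (SE 0.21) in Cpa3+/+ tissue. Its Cpa3Cre/+ HFD arrays read 9.59, 9.52 and 9.68, against 9.02, 9.02 and 9.49 on LFD, again without overlap. A second probe of Folr2 followed the first with r = 0.966 and gave 0.50 in Cpa3Cre/+ and 0.55 in Cpa3+/+ tissue.

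With median scaling in place of quantile normalization, Folr2 rose by 0.72 with HFD in Cpa3Cre/+ tissue (limma adjusted p = 0.0125). The genes most like Folr2 were Cfp, Hyi and C1qa (r = 0.899, 0.819 and 0.815 over 17 arrays). Cfp encodes properdin and C1qa a chain of complement C1q.

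Lyve1, Timd4, Mertk and F13a1 were not called for the diet either. Lyve1 had log2 fold changes of 0.35 (SE 0.25) in KitW/Wv, -0.50 (SE 0.25) in Cpa3Cre/+ and -0.42 (SE 0.28) in Cpa3+/+ tissue. Timd4, which was dim with values of 4.66 to 6.41, had 0.02 (SE 0.34), -0.72 (SE 0.34) and -0.49 (SE 0.38) in these genotypes. Mertk had 0.51 (SE 0.39), 0.16 (SE 0.39) and -0.78 (SE 0.43), and F13a1 had 0.05 (SE 0.18), -0.03 (SE 0.18) and 0.36 (SE 0.20). The Cpa3+/+ HFD arrays of Mertk read 8.20 and 8.23, against 9.96, 8.67 and 8.36 on LFD, so the highest Mertk value of the set was on Cpa3+/+ LFD array 1. The Cpa3Cre/+ HFD arrays of Timd4 read 4.66, 5.00 and 5.23, against 5.71, 5.75 and 5.59 on LFD, and did not overlap (limma adjusted p = 0.24).

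**Figure D4:**
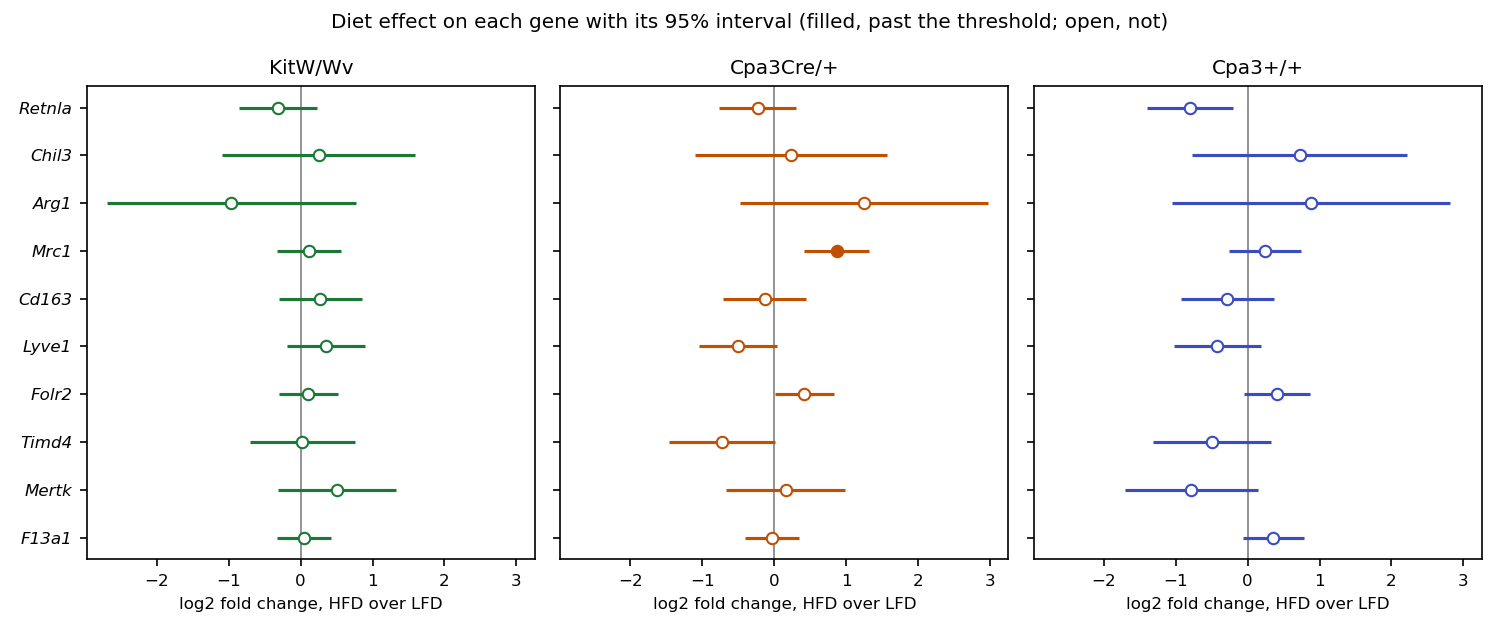
Log2 fold change of HFD over LFD (horizontal axis) with its 95% interval for each of the 10 genes in KitW/Wv, Cpa3Cre/+ and Cpa3+/+ tissue. A filled point passed the adjusted threshold, which was Mrc1 in Cpa3Cre/+ tissue (0.87), and the intervals are not adjusted for the number of genes.

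Between genotypes on HFD, 1 member was called. Lyve1 measured 9.70, 9.93 and 9.81 on KitW/Wv arrays, against 8.34, 8.21 and 9.32 on Cpa3Cre/+ arrays. Every KitW/Wv array was above every Cpa3Cre/+ array, and Cpa3Cre/+ array 3 was high among its companions. Lyve1 was higher in KitW/Wv than in Cpa3Cre/+ tissue by 1.19 on the log2 scale (SE 0.25, 95% interval 0.65 to 1.73, limma adjusted p = 0.00921), a 2.28-fold difference. In this comparison 1 of 10 members passed, beside 8.43% of all genes (3.22% higher and 5.21% lower). Without Cpa3Cre/+ array 2 the difference was 0.98 and the adjusted p 0.0543, which ends the call. Without Cpa3Cre/+ array 3 it was 1.54 (adjusted p = 0.000466), and without KitW/Wv array 1, the array with B cell and muscle markers, it was 1.24 (adjusted p = 0.0225). Over all alternatives run, the adjusted p ranged from 0.000267 to 0.0543.

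Set against Cpa3+/+ tissue on HFD, whose 2 arrays read 8.71 and 9.21, Lyve1 was likewise higher on all 3 KitW/Wv arrays, with a log2 fold change of 0.85 (SE 0.28). Its limma adjusted p was 0.148, and it became 0.0404 without Cpa3Cre/+ HFD array 3, which enters through the shared spread. No member was called in this comparison, beside 2.52% of all genes (0.637% higher and 1.88% lower), and 2 had an unadjusted p below 0.05. Both comparisons use the same KitW/Wv arrays. On LFD Lyve1 measured 9.39, 9.41 and 9.57 in KitW/Wv, 9.34, 8.76 and 9.27 in Cpa3Cre/+, and 9.48, 9.38 and 9.28 in Cpa3+/+ tissue. The KitW/Wv values overlapped those of Cpa3+/+ mice and lay just above those of Cpa3Cre/+ mice. The difference between the diet effects of KitW/Wv and Cpa3Cre/+ tissue on Lyve1 was 0.85 (SE 0.36, limma adjusted p = 0.296), and it passed (adjusted p = 0.0254) without Cpa3Cre/+ HFD array 3.

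General macrophage markers ran the other way in this comparison: 10 of 18 were lower in KitW/Wv than in Cpa3Cre/+ tissue on HFD and 0 were higher, with a median log2 fold change of -1.01. Adgre1, the gene of F4/80, was at -2.19 (SE 0.20, limma adjusted p = 2.18e-05). Among lipid-associated markers 10 of 17 were lower, with Trem2 at -3.16. Median log2 fold changes were 0.38 for the 10 members, of which 8 were positive, and 0.00 for all genes.

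Because Lyve1 also marks lymphatic endothelium, the other markers of that cell type were set beside it. None of the 9 measured was called for KitW/Wv over Cpa3Cre/+ on HFD, and their median log2 fold change was 0.14. Their mean deviation was -0.67, 0.73 and -0.61 on KitW/Wv HFD arrays 1, 2 and 3, against -0.85, -0.83 and -0.34 on the Cpa3Cre/+ HFD arrays. Lyve1 was high on all 3 KitW/Wv arrays, and this list was high on array 2 alone. The part of lymphatic endothelium in the level of Lyve1 was not tested. Prox1, the transcription factor that defines lymphatic endothelium, was detected on 6 of the 17 arrays. The genes most like Lyve1 over the 17 arrays were Sh3d21, Timp3 and Rbp7 (r = 0.883, 0.882 and 0.864).

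No other member was called between genotypes on HFD. For KitW/Wv over Cpa3Cre/+, Timd4 had 0.95 (SE 0.34, limma adjusted p = 0.11), Cd163 0.47 (SE 0.27), F13a1 0.39 (SE 0.18), Mertk 0.49 (SE 0.39) and Mrc1 -0.27 (SE 0.21) as log2 fold changes. Timd4 passed without KitW/Wv array 2 (1.29, adjusted p = 0.0405), whose value of 5.23 lay below its companions at 6.20 and 6.31. Arg1 had a log2 fold change of -2.32 (SE 0.81) for KitW/Wv over Cpa3Cre/+ with an adjusted p of 0.0959, so it was not called, although all KitW/Wv arrays lay below all Cpa3Cre/+ arrays. Without KitW/Wv array 1 this became -3.10 (limma adjusted p = 0.0373). That array had a liver gene level of 1.34, against -2.56 and -1.52 on its companions and 1.18 to 1.69 on the Cpa3Cre/+ arrays. With the liver gene level as a covariate, chosen after seeing the data, the difference in Arg1 over all arrays became -0.96 (limma adjusted p = 0.291). In the same comparison all 13 liver genes had negative log2 fold changes, with a median of -2.28, and none was called. The liver list was written after the values of Arg1 had been seen and correlates with Arg1. The fit with this covariate therefore cannot tell what part liver RNA had in the difference in Arg1, which was not tested.

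For Cpa3Cre/+ over Cpa3+/+ on HFD 0 of 10 members passed, beside 0.0441% of all genes, and 1 had an unadjusted p below 0.05: F13a1, at -0.49 (SE 0.20). F13a1 measured 9.87, 10.08 and 10.24 on Cpa3Cre/+ arrays, against 10.60 and 10.51 on Cpa3+/+ arrays, without overlap. On LFD no member passed in any pair of genotypes, beside 0.0504% of all genes for KitW/Wv over Cpa3+/+, 0% for KitW/Wv over Cpa3Cre/+ (limma gave 724 genes at an unadjusted p below 0.05) and 0.0378% for Cpa3Cre/+ over Cpa3+/+. At an unadjusted p below 0.05 these held 0, 2 and 1 members. The interactions of diet and genotype also called 0 of 10, beside 0.939% of all genes for KitW/Wv against Cpa3+/+, 2.75% for KitW/Wv against Cpa3Cre/+ and 0% for Cpa3Cre/+ against Cpa3+/+, where limma gave 623 genes at an unadjusted p below 0.05. Members with an unadjusted p below 0.05 numbered 1, 2 and 0.

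The 10 genes did not move as 1 set from array to array. Over 45 pairs of members Pearson's r across the 17 arrays ranged from -0.555 to 0.751, with a median of 0.119. The highest was that of Lyve1 and Cd163 (0.751, and 0.745 over deviations from the group means), and the lowest that of Arg1 and Lyve1. Mertk and Cd163 had r = 0.615, and Retnla and Timd4 0.596. All values on an array share its extract and normalization. The gene most like Retnla was Irs2 (r = 0.867 over 17 arrays), an adaptor of the insulin receptor, and the next were Zhx2 and Ccdc77 (0.848 and 0.835). Cd163 was most like Osbpl9, Fam214a and Ap4b1 (0.900, 0.886 and 0.841), and Timd4 most like Acy1, Surf1 and Mrpl39 (0.823, 0.821 and 0.814). Mertk was most like Ampd3, Rab5b and Chd8 (0.846, 0.845 and 0.842), and F13a1 most like Psca, Bmp4 and Aqp3 (0.747, 0.723 and 0.719). Second probes followed the first closely for Arg1 (r = 0.960) but less so for Cd163 and Mertk (0.513 and 0.530), where the second probe was dim.

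Other genes of the resident programme were called at shares at or below those of all genes. Of 20 measured resident perivascular macrophage genes outside the 10, 0 passed for the diet in KitW/Wv, 1 rose in Cpa3Cre/+ and 0 passed in Cpa3+/+ tissue, beside 0.0063%, 9.64% and 4.91% of all genes, with median log2 fold changes of -0.03, 0.04 and 0.19. The 1 gene was Clec10a, a galactose-binding lectin of alternatively activated macrophages, which is also in the alternative activation list and rose by 1.01 (SE 0.23, limma adjusted p = 0.0127). Stab1, a scavenger receptor, had the next smallest p and did not pass (0.91, SE 0.31, adjusted p = 0.0885). For KitW/Wv over Cpa3Cre/+ on HFD 1 of the 20 passed, beside 8.43% of all genes. It was Fcna, which encodes the lectin ficolin A. Fcna ranged from 10.65 to 12.32 on KitW/Wv arrays, against 9.56 to 10.14 on Cpa3Cre/+ arrays. It was higher by 1.77 (SE 0.40, adjusted p = 0.0132), with no overlap.

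Of 21 measured alternative activation genes outside the 10, 0 passed for the diet in KitW/Wv, 4 rose and 2 fell in Cpa3Cre/+, and 3 rose and 1 fell in Cpa3+/+ tissue. Beside these diet counts, and those of the lists that follow, stand 0.0063%, 9.64% and 4.91% of all genes in the same order of genotypes. Clec7a, the receptor for fungal glucans, rose by 2.73 in Cpa3Cre/+ (SE 0.29, adjusted p = 2.76e-05) and by 2.92 in Cpa3+/+ tissue (SE 0.33, adjusted p = 0.000148). Il1rn, the interleukin 1 receptor antagonist, rose by 3.24 in Cpa3Cre/+ (SE 0.24, adjusted p = 1.26e-06) and by 2.72 in Cpa3+/+ tissue (SE 0.27, adjusted p = 4.54e-05). Irf4, a transcription factor of alternative activation that adipocytes also express, fell by 3.57 in Cpa3Cre/+ (SE 0.80, adjusted p = 0.0101) and also fell in Cpa3+/+ tissue (log2 fold change -3.82, SE 0.89, adjusted p = 0.0231). Clec7a and Il1rn are made by macrophages in other states too. On HFD, KitW/Wv tissue was lower than Cpa3Cre/+ tissue for 3 of the 21, beside 5.21% of all genes, with Il1rn at -2.62 and Clec7a at -1.83. It was higher for 1, beside 3.22% of all genes. That was the chemokine gene Ccl24, at 1.14 (SE 0.28, limma adjusted p = 0.0206).

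Among 13 measured cytokines, receptors and Stat6 that act upstream, 0 passed for the diet in KitW/Wv, 3 rose in Cpa3Cre/+ and 0 passed in Cpa3+/+ tissue. The 3 were Il10ra, a chain of the interleukin 10 receptor (1.90, SE 0.34), Csf1r, the receptor for macrophage colony-stimulating factor (1.13, SE 0.17), and Stat6 (0.66, SE 0.18), with adjusted p of 0.00221, 0.000521 and 0.0296. Of 11 arginine and polyamine genes, only Odc1 passed for the diet. Odc1 encodes ornithine decarboxylase, which uses the product of arginase, and it fell by 0.52 in Cpa3Cre/+ (SE 0.13, adjusted p = 0.0213) and by 0.77 in Cpa3+/+ tissue (SE 0.15, adjusted p = 0.00697).

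Of 20 apoptotic cell uptake genes, 0 passed for the diet in KitW/Wv, 6 rose in Cpa3Cre/+ and 1 rose in Cpa3+/+ tissue. The Cpa3Cre/+ rises were led by Stab2, a scavenger receptor (1.68, SE 0.28, adjusted p = 0.00125). In comparison, of 14 classical activation genes 0 passed in KitW/Wv, 3 rose in Cpa3Cre/+ and 2 rose in Cpa3+/+ tissue. Itgax, which encodes CD11c, rose by 2.47 in Cpa3Cre/+ tissue (SE 0.14, adjusted p = 2.21e-07), where it was detected on 3 of 3 HFD arrays and on 1 of 3 LFD arrays. In Cpa3+/+ tissue Itgax was not above background on any of the 3 LFD arrays. The HFD arrays there were at least 3.34-fold higher (limma adjusted p = 1.72e-05), setting the HFD mean against the LFD values raised to the lowest signal detected on each array.

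Of 23 measured relatives of the 10 genes in the same families, 0 passed for the diet in KitW/Wv, 3 rose and 1 fell in Cpa3Cre/+, and 1 rose in Cpa3+/+ tissue. Cd44, a hyaluronan receptor related to Lyve1, rose by 2.59 in Cpa3Cre/+ (SE 0.31, adjusted p = 6.44e-05) and by 2.32 in Cpa3+/+ tissue (SE 0.34, adjusted p = 0.00118). Lyve1 itself had -0.50 and -0.42 there. Retn, the adipocyte hormone resistin and a relative of Retnla, fell by 1.49 in Cpa3Cre/+ tissue (SE 0.27, adjusted p = 0.0024). On HFD Cd163l1, a relative of Cd163, was higher in KitW/Wv than in Cpa3Cre/+ tissue by 1.85 (SE 0.35, adjusted p = 0.00439), beside 0.47 for Cd163.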

How the data were processed

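The members and gene lists were chosen with earlier results of these data known. Per the labels, biotin-labelled total RNA was hybridised to Illumina arrays of 46237 probes, and the submitters' processing notes name GenomeStudio with no version. The authors deposited a linear intensity, not normalized, and a detection p-value for each probe and array; the sources do not give how that p-value was made. Their normalized intensity served as an alternative only. Median deposited intensities were 98.6 to 107.4, and 46.9% to 51.7% of probes were detected per array. The number of arrays limits the precision.

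Background was estimated from the detection p-values and arrays were quantile normalized (neqc of limma 3.58.1, R 4.3.3, offset 16), giving log2 values. Probes with a symbol and a detection p-value below 0.05 on at least 2 arrays were kept (25594), and the brightest by mean stood for its gene. Of 35784 probes with 1 symbol each, 28620 were matched by Entrez ID, and 2637 by accession and 2343 by synonym, to RefSeq names; 10453 probes had none. A linear model with 1 mean per group was fitted to 17 arrays (11 residual and 3.27 prior degrees of freedom), for 9 comparisons of 2 groups and 3 interactions, adjusted by Benjamini-Hochberg over 15863 genes. The fit was tested on simulated data. Named genes were the 10 members, up to 4 called genes per list by size of change (with under 2 called, the 2 of lowest p), and the 3 genes most correlated with each member. No member was left without detection in a whole group. Figures used Python 3.11.15 and matplotlib 3.10.9.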

Additional observations from a re-analysis of the deposited data

How the results depend on the processing

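The count of members past the threshold was recomputed under 29 alternatives for each of 12 comparisons. For HFD over LFD in Cpa3Cre/+ tissue it was 2 with median scaling (Mrc1 and Folr2) and with array weights (Mrc1 and Lyve1, -0.75, adjusted p = 0.0398), 0 in a fit to the compared groups alone, and 0 to 2 when 1 array was left out. For KitW/Wv over Cpa3+/+ on HFD it was 1 with array weights (Lyve1, adjusted p = 0.0304) and 0 to 1 without 1 array. For KitW/Wv over Cpa3Cre/+ on HFD it was 5 with array weights (Lyve1, Arg1, Timd4, Cd163 and F13a1), 2 without the 3 arrays of highest epididymis, B cell or muscle genes, 2 with the liver gene level as a covariate, both chosen after seeing the data, and 0 to 2 without 1 array. The interaction of KitW/Wv and Cpa3Cre/+ gave 0 to 1 without 1 array. All other counts were the same under every alternative run. Without Cpa3Cre/+ HFD array 3, Lyve1 also passed for the diet in Cpa3Cre/+ tissue (-0.85, adjusted p = 0.0166).

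No called difference changed sign. Signs that turned belong to uncalled values. With median scaling, Cd163 became 0.18 and F13a1 0.29 for the diet in Cpa3Cre/+ tissue, Folr2 became -0.17 for KitW/Wv over Cpa3Cre/+ and 0.0020 for Cpa3Cre/+ over Cpa3+/+ on HFD. With the mean of its probes, Chil3 was 0.042 for KitW/Wv over Cpa3+/+ on HFD, and without the 3 arrays Timd4 was -0.16 for KitW/Wv over Cpa3+/+ on LFD. Leaving out 1 array, Arg1 spanned -0.28 to 1.53 for Cpa3Cre/+ over Cpa3+/+ on HFD and -0.0181 to 1.79 for the diet in Cpa3+/+; Cd163 spanned -0.32 to 0.29 and -0.36 to 0.11 for Cpa3Cre/+ over Cpa3+/+ on HFD and LFD, -0.59 to 0.0246 for the diet in Cpa3+/+ and -0.28 to 0.18 for KitW/Wv over Cpa3+/+ on LFD. Chil3 spanned -0.72 to 0.63 for KitW/Wv over Cpa3Cre/+ on LFD, and Mertk -0.69 to 0.11 and Timd4 -0.16 to 0.44 for KitW/Wv over Cpa3+/+ on LFD. The causes were not tested.

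With the replicate number as a block (replicate block), the members past the threshold were 1 for HFD over LFD in Cpa3Cre/+, 1 for KitW/Wv over Cpa3Cre/+ on HFD and 0 elsewhere, as without it. Deviations of same-numbered arrays correlated with r from -0.480 to 0.380 (median 0.071, over 0.1 in 17 of 40 pairs). Those of arrays with different numbers had r from -0.435 to 0.546 (median -0.034, over 0.1 in 21 of 80 pairs). The ranges overlapped, and the median was somewhat higher for same-numbered arrays. Whether arrays of 1 number share a source was not tested, and the main fit did not take the numbers as pairs.

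Over all genes, a fit to the compared groups alone called 760 in place of 1529 for the diet in Cpa3Cre/+ and 151 in place of 779 in Cpa3+/+ tissue. Array weights called 1451 in place of 400 for KitW/Wv over Cpa3+/+ and 3062 in place of 1337 for KitW/Wv over Cpa3Cre/+ on HFD. Median scaling shifted calls for the diet in Cpa3Cre/+ to 1524 higher and 233 lower, from 987 and 542, and for KitW/Wv over Cpa3Cre/+ on HFD to 252 higher and 1310 lower, from 510 and 827. It moved the median log2 fold change of all genes to 0.10 from -0.02, to -0.10 from 0.00 and, for Cpa3Cre/+ over Cpa3+/+ on HFD, to 0.13 from 0.02, so small signs under it are relative to these shifts. A block for the slide could not be run because the files name no slides.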

Other observations

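Neutrophil genes were among those that differed between genotypes on HFD. Of 10 measured, 4 were higher in KitW/Wv than in Cpa3Cre/+ tissue, beside 3.22% of all genes. They included S100a9, a calcium-binding protein of granulocytes (2.38, SE 0.64), and Retnlg, a relative of Retnla made by neutrophils (1.87, SE 0.43). The others were the granule enzyme genes Elane (1.32, SE 0.35) and Mpo (1.17, SE 0.31). In this order their limma adjusted p was 0.0326, 0.0139, 0.0321 and 0.0291. As a log2 deviation, the mean level of the neutrophil list on HFD was 0.44 in KitW/Wv, -0.20 in Cpa3Cre/+ and 0.02 in Cpa3+/+ tissue. On LFD it was -0.05, -0.56 and 0.36 in the same order. Of the large peritoneal macrophage markers, Gata6, the transcription factor that defines these cells and that other mesodermal cells also express, was higher in KitW/Wv than in Cpa3Cre/+ tissue by 1.21 (SE 0.18, adjusted p = 0.000722), and none of the other 11 such markers was called. Over all 12, 7 log2 fold changes were positive and 5 negative with a median of 0.16, and the mean level of the list was 0.09 in KitW/Wv HFD and 0.22 in Cpa3Cre/+ HFD tissue as a log2 deviation.

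Of 8 measured proliferation genes, 0 passed for the diet in KitW/Wv, 7 rose in Cpa3Cre/+ and 6 rose in Cpa3+/+ tissue. Cdca8, a subunit of the chromosomal passenger complex, rose by 2.79 in Cpa3Cre/+ (SE 0.28, limma adjusted p = 1.51e-05) and by 1.96 in Cpa3+/+ tissue (SE 0.31, adjusted p = 0.00206). On HFD it was lower in KitW/Wv than in Cpa3Cre/+ tissue (log2 fold change -2.61, SE 0.28, adjusted p = 7.61e-05).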
